A study of Mus musculus with 21 samples.

Results

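The protocadherin genes were read out of polyA RNA-seq of mouse embryonic stem cells (mESCs) in which subunits of the cohesin complex had been removed. Every gene symbol beginning with Pcdh was taken, which gave 71 of the 23412 genes counted: 15 Pcdha, 22 Pcdhb and 22 Pcdhg genes of the clustered family and 12 non-clustered genes. In 21 libraries, 69 of the 71 genes had at least 1 read, and 31 passed the filter on low counts and could be tested: 21 Pcdhg, 3 Pcdhb and 7 non-clustered genes, and none of the Pcdha genes.

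The cells were v6.5 mESCs, a male line, and every well received 50 nM siRNA for 48 h before RNA was collected. The 7 groups of 3 libraries were wild type with the siGLO transfection control (WT siGLO), wild type with an siRNA to Pds5b (WT siPds5b), Pds5a-KO siGLO, Pds5b-KO siGLO, and Pds5a-KO cells with siPds5b, siStag1 or siStag2. The Pds5a-KO siPds5b group is called dual depletion below. Each knockout was a single CRISPR clone. The Pds5a clone carried a different edit on each allele, at an early exon and on 1 allele reaching into the next intron, and the Pds5b clone carried a small homozygous insertion in an exon, so that genotype and clone cannot be told apart, and the p-values measure the spread between 3 libraries of 1 clone or line. PDS5A and PDS5B are alternative HEAT repeat subunits of cohesin, and STAG1 and STAG2 are another such pair.

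Protocadherins are cadherin-like adhesion proteins best known from the nervous system. The Pcdha, Pcdhb and Pcdhg genes lie side by side on chromosome 18. Each alpha and gamma gene has its own first exon and promoter, which is spliced to constant exons shared by the whole cluster, whereas beta genes are single exons. In neurons each cell uses a few of these promoters, chosen with the help of CTCF and cohesin looping to distant enhancers, while C-type genes at the end of the alpha and gamma clusters are used more uniformly. The non-clustered genes lie outside the clusters and have their own promoters. Pcdh1 and Pcdh12 are on chromosome 18 too, starting at 38185914 and 38267092, past the end of the gamma cluster at 37841873. They are divided into delta-1 genes (Pcdh1, Pcdh7, Pcdh9 and Pcdh11x), delta-2 genes (Pcdh8, Pcdh10, Pcdh17, Pcdh18 and Pcdh19) and others (Pcdh12, Pcdh15 and Pcdh20).

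Total counts ran from 17311090 to 23989198 per library. Pds5b was lower by 3.01 on the log2 scale in Pds5b-KO siGLO than in WT siGLO, and siPds5b, siStag1 and siStag2 lowered their targets by 1.39, 2.08 and 1.90 in Pds5a-KO cells. The Pds5a count differed by -0.24 ± 0.09 (SE, adjusted p = 0.0415, edgeR's quasi-likelihood test with Benjamini-Hochberg adjustment) in Pds5a-KO siGLO, which does not check the label, since the edits lie at 1 early exon and reads from the other exons can still be counted. The 8 pluripotency markers (Pou5f1, Sox2, Nanog and others) were all detected, with a summed level of 6840 to 7280 CPM (counts as a proportion of the library total, on the usual CPM scale) in WT siGLO and 4710 to 5140 in dual depletion. Of these 8, 5 were called lower in Pds5a-KO siGLO, 5 in Pds5b-KO siGLO and 6 in dual depletion. The shares of all genes called lower were 8.12%, 8.57% and 14.6%. The 5 primitive endoderm markers summed to 17.6 to 34.8 CPM in WT siGLO and 22.1 to 47.1 in dual depletion, with 0 called. The 10 neural markers summed to 180 to 208 CPM in WT siGLO, 131 to 144 in Pds5a-KO siGLO, 197 to 209 in Pds5b-KO siGLO and 109 to 120 in dual depletion. Of the 9 tested, 2 were called higher and 2 lower in Pds5a-KO siGLO, and 4 higher and 0 lower in Pds5b-KO siGLO. In dual depletion 2 were higher and 3 lower. The shares of all genes called were 17.8%, 18.2% and 32.0%. Their median log2 fold change was 0.82, 1.07 and 0.66, while the sum is weighted to the genes with most reads. Neurog2 could be tested mostly because of its dual depletion reads. The 6 fibroblast markers (Col1a1, Col3a1, Postn and others) summed to 58.4 to 81 CPM in WT siGLO, 20.1 to 79.2 in Pds5a-KO siGLO and 20.6 to 26.9 in Pds5b-KO siGLO, and no marker of these lists was at 0 in any group.

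In WT siGLO cells the gamma cluster and the non-clustered genes supplied nearly all protocadherin reads. The gamma genes summed to 47.8 ± 4.3 CPM (SD, n = 3), the non-clustered genes to 27.9 ± 6.5 CPM, the beta genes to 2.88 ± 0.93 CPM and the alpha genes to 0.260 ± 0.113 CPM. A single library held 4 to 9 reads over all alpha genes against 865 to 1229 over the gamma genes. Per length, the order was led by Pcdhgc3, a C-type gamma gene, at 4.36 ± 1.13 CPM per kb when only exon bases not shared with another gene were counted. Pcdh1, a broadly expressed delta-1 gene, followed at 2.20 ± 0.52, and Pcdhga11 lay next at 2.15 ± 0.07, a difference from Pcdh1 within the spread. Pcdhgb7, Pcdhga1 and Pcdhgb8 followed at 1.22 ± 0.24, 1.03 ± 0.15 and 1.00 ± 0.12. These 3 differed from one another by no more than the SD of Pcdhgb7, and lay below Pcdhga11 by more than the spread. Bases shared with any other annotated gene, the constant exons among them, made up 27.8% (Pcdhgc5) to 66.8% (Pcdhga4) of the exon bases of a gamma gene in the GENCODE annotation of GRCm38. How reads on these shared exons were assigned to a gene is not given in the sources used here, so counts of single alpha and gamma genes are uncertain by the reads the shared exons hold. When all exon bases were used instead, Pcdhgc3 stayed first at 2.68 ± 0.69 and Pcdh1 stayed second at 2.20 ± 0.52.

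**Figure D1:**
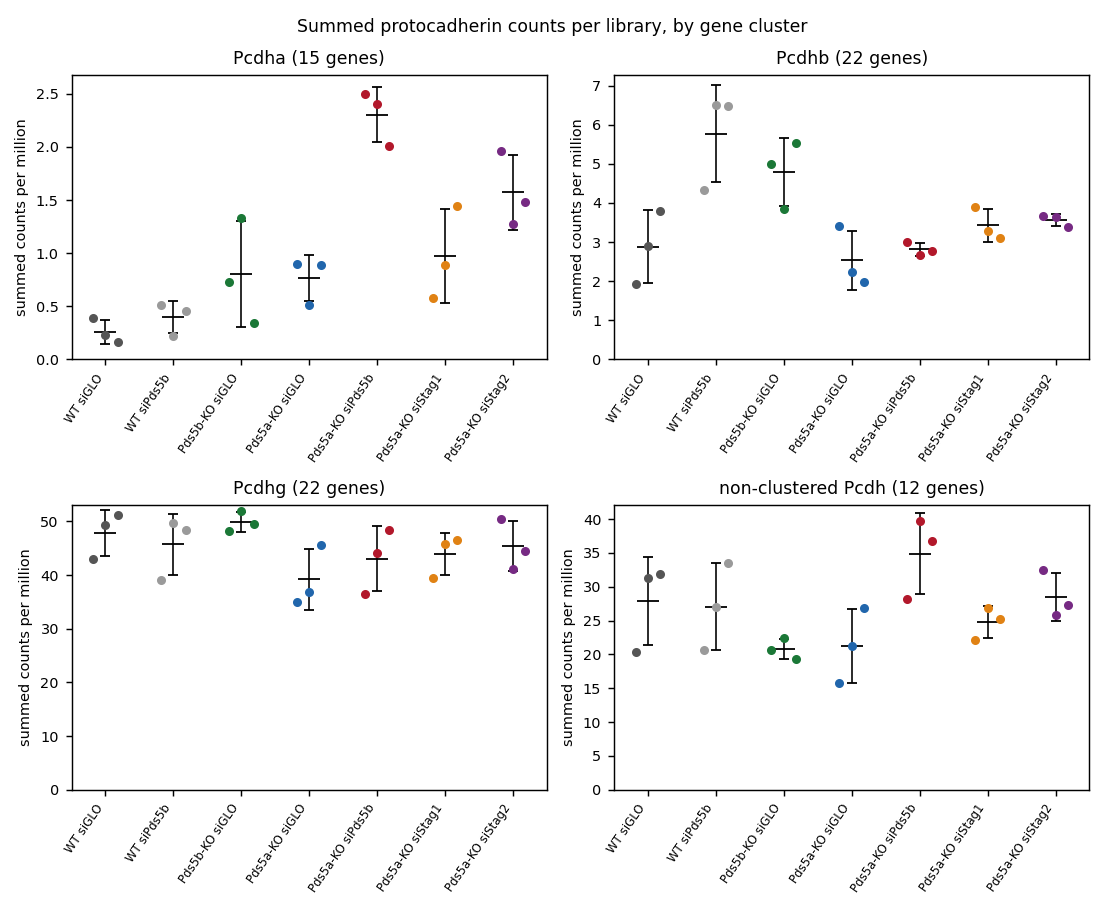
Summed CPM of the Pcdha, Pcdhb, Pcdhg and non-clustered Pcdh genes (y axes, linear, from 0) in each of the 21 libraries, by group (x axes); points are libraries and bars the mean ± SD of 3. The alpha sum was 0.260 in WT siGLO and 2.30 in Pds5a-KO siPds5b, while the gamma sums of all groups lay between 39.2 and 49.9.

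Genes were called at adjusted p under 0.01 in 1 fit of all 21 libraries. In Pds5a-KO siGLO against WT siGLO, 3 of the 31 tested members were called, all lower, beside 17.8% of all 14963 genes tested (9.63% higher and 8.12% lower), and the median log2 fold change was -0.21 over the members and 0.00 over all genes. The count fell to 1 without Pds5a-KO siGLO replicate 1 and to 0 without replicate 2. In Pds5b-KO siGLO against WT siGLO, 1 member was higher and 1 lower (18.2% of all genes called, 9.64% higher and 8.57% lower), with a member median of 0.56. This count was 1 without WT siGLO replicate 2, WT siGLO replicate 3 or Pds5b-KO siGLO replicate 3, and 0 without Pds5b-KO siGLO replicate 1. Compared directly, 3 members were lower in Pds5a-KO siGLO than in Pds5b-KO siGLO (19.2%, 9.74% higher and 9.46% lower), with a member median of -0.58. In dual depletion against WT siGLO, 5 members were higher and 5 lower, beside 32.0% of all genes called (17.4% higher and 14.6% lower) and a member median of -0.01. That count was 5 without Pds5a-KO siPds5b replicate 2 and 6 without replicate 3. Leaving out any 1 of the 6 libraries compared gave 5 to 7, against 10 in the main fit.

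Within Pds5a-KO cells, siPds5b raised 1 member (7.59% of all genes called, 3.59% lower and the rest higher), and the direct comparison of siPds5b with siStag2 called 1 member, which was higher under siPds5b (3.96%, 2.04% higher and 1.92% lower). No member was called by edgeR's quasi-likelihood test after siStag1 (0.0936%, of which 0.0134% higher and 0.0802% lower, with 8 members at unadjusted p under 0.05 and 0 called by DESeq2) or between siStag2 and siStag1 (0.394%, of which 0.167% higher and 0.227% lower, with 2 members and 0). After siStag2 (2.24%, 0.969% higher and 1.27% lower) none was called, 5 had an unadjusted p under 0.05, DESeq2 called Pcdh19, and leaving out Pds5a-KO siGLO replicate 3 called Pcdhga10. In wild-type cells siPds5b called none (0.00668%), with 2 members at unadjusted p under 0.05 and 0 called by DESeq2, and the interaction of Pds5a genotype and siPds5b called none (1.48%, 0.588% higher and 0.896% lower), with 3 members at unadjusted p under 0.05 and 0 by DESeq2.  Comparisons with WT siGLO share those 3 libraries, and those with Pds5a-KO siGLO share theirs.

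Most delta-2 genes were higher in dual depletion. Delta-2 protocadherins bind the WAVE complex through their cytoplasmic tails and act in cell sorting and axon growth. Of the 5, Pcdh8, Pcdh10, Pcdh17 and Pcdh19 were called higher against WT siGLO, beside 17.4% of all genes, and Pcdh18 was not called. The Pcdh17 call was lost in 9 of 15 alternatives. Pcdh10 could be tested only because of its dual depletion reads. In bulk samples, a different number of cells with a transcript and a different amount of RNA per cell cannot be told apart.

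Promoter sequence is shown for the 3 of these genes whose annotated start coincides with the start of the RefSeq promoter window (GRCm38.p6, the build of the counts). Each line gives the 150 bases before the start, 5′ to 3′ on the gene's strand, and capitals mark CGCT or its reverse complement AGCG, the core letters of the conserved element of clustered protocadherin promoters.
Pcdh8, chr14:79771313-79771462, minus strand: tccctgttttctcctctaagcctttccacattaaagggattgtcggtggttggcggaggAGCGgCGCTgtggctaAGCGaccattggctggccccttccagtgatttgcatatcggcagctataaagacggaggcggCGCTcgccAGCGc
Pcdh10, chr3:45378248-45378397, plus strand: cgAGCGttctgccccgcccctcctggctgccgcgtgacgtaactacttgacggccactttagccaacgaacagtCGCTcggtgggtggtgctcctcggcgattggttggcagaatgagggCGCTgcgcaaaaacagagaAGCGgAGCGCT
Pcdh17, chr14:84443413-84443562, plus strand: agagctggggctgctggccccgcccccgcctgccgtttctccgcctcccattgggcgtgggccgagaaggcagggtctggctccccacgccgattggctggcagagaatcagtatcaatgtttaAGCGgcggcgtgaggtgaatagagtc

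Over the whole 300-base windows, counted on both strands with overlaps, CGCT occurred 5 times at Pcdh8, 8 times at Pcdh10 and 3 times at Pcdh17. Of all 32851 windows, 61.8% held CGCT at least once, with a median of 1 match. The windows held 14 (Pcdh8), 24 (Pcdh10), 26 (Pcdh17), 18 (Pcdh19) and, for the gene not called, 23 (Pcdh18) CpG dinucleotides, against a median of 7 over all windows. Pcdh19 (3 matches) and Pcdh18 (7 matches) also held CGCT in their windows, and Pcdh18 was not called in dual depletion.

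Pcdh8 moved the most within Pds5a-KO cells. Its normalised read counts (counts scaled to the mean library size) were 6.015, 6.76 and 16.5 in WT siGLO, 2.03, 3.74 and 1.93 in Pds5a-KO siGLO, and 32.85, 41.5 and 23.9 in dual depletion. The 3 dual depletion libraries thus lay above every library of the other 6 groups, and the 3 Pds5a-KO siGLO libraries lay below every one. Pcdh8 rose by 3.60 ± 0.57 on the log2 scale after siPds5b in Pds5a-KO cells (adjusted p = 9.91e-05, edgeR's quasi-likelihood test with Benjamini-Hochberg adjustment), a call that held in all 15 alternatives run. Against WT siGLO it rose by 1.70 ± 0.45 (adjusted p = 0.0036). In wild-type cells siPds5b gave 6.11, 15.6 and 21.8, which overlaps WT siGLO. The interaction term, which tests whether siPds5b acted differently in the genotypes, was 3.08 ± 0.79 with an adjusted p of 0.0248, which did not pass the threshold. Pcdh8 was lower in Pds5a-KO siGLO than in Pds5b-KO siGLO (18, 16 and 12 reads, against 2, 4 and 2) by a log2 difference of -2.53 ± 0.62 (adjusted p = 0.0033). Against siStag2, where the libraries stood at 14.6, 4.59 and 4.09, dual depletion was higher by 2.03 ± 0.48 (adjusted p = 0.00801). The dual depletion call against WT siGLO was lost without WT siGLO replicate 1 or 2 or Pds5a-KO siPds5b replicate 2. The knockout difference was lost without Pds5a-KO siGLO replicate 1 or 3 or Pds5b-KO siGLO replicate 1 or 2. Both were also lost without replicate 1 of every group. The siStag2 difference was lost without Pds5a-KO siPds5b replicate 1 or 2 or Pds5a-KO siStag2 replicate 2 or 3, and with only the groups compared in the model. Adjusted p was no higher than 0.0276, 0.0175 and 0.049 for these 3 over all alternatives.

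Pcdh10 was close to silent outside dual depletion. WT siGLO held 0, 0 and 3 reads, Pds5a-KO siGLO 6, 3 and 3, and dual depletion 15, 12 and 13. All 3 dual depletion libraries were above every other library. The ratio of summed, depth-scaled reads to WT siGLO was 14.1, with an exact 95% interval of 4.47 to 71 that covers counting error only, and the fitted log2 fold change was 3.65 ± 0.77 (adjusted p = 0.000465). Pcdh10 passed the filter on low counts only through the 3 dual depletion libraries, so that it was bound to be higher there, and its fitted value and p are no independent support. Against Pds5a-KO siGLO the log2 fold change was 1.70 ± 0.60 (adjusted p = 0.0565), and the libraries did not overlap.

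Pcdh19, an X-linked delta-2 gene, had normalised counts of 20.6, 36.05 and 17.4 in WT siGLO and 77.25, 70.5 and 61.8 in dual depletion. The groups did not overlap. The log2 fold change was 1.53 ± 0.34 (adjusted p = 0.000731) and was called in all 16 alternatives. After siStag2 the gene was at 123, 83.7 and 62.3, against 43.7, 23.4 and 38.55 in Pds5a-KO siGLO, with no overlap. That difference of 1.35 ± 0.32 missed the threshold (adjusted p = 0.0121), but was called when the replicate number was fitted as a block (adjusted p = 0.00682), by DESeq2 (0.00281) and without the filter on low counts (0.00829).

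Pcdh17 had 7, 8 and 1 reads in WT siGLO and 17, 21 and 19 in dual depletion, with no overlap once scaled. The log2 fold change of 1.86 ± 0.57 was just past the threshold (adjusted p = 0.00988). The call was lost in 9 of 15 alternatives, among them DESeq2, no filter, and leaving out WT siGLO replicate 1 or 3 or any Pds5a-KO siPds5b library, with adjusted p up to 0.0717. Pcdh18, the most abundant delta-2 gene, differed from WT siGLO (48.1, 81.1 and 96.8) by -0.50 in dual depletion and was not called. In Pds5b-KO siGLO its libraries were at 17.9, 29.9 and 25.2, below all 3 WT siGLO libraries, with a log2 difference of -1.62 ± 0.48 (adjusted p = 0.0155). DESeq2 called that difference (adjusted p = 0.00249). Replicate 1 was the lowest library for Pcdh18 in every group, and the fibroblast markers were lowest in replicate 1 in 6 of the 7 groups. Their part in the result was not tested.

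**Figure D2:**
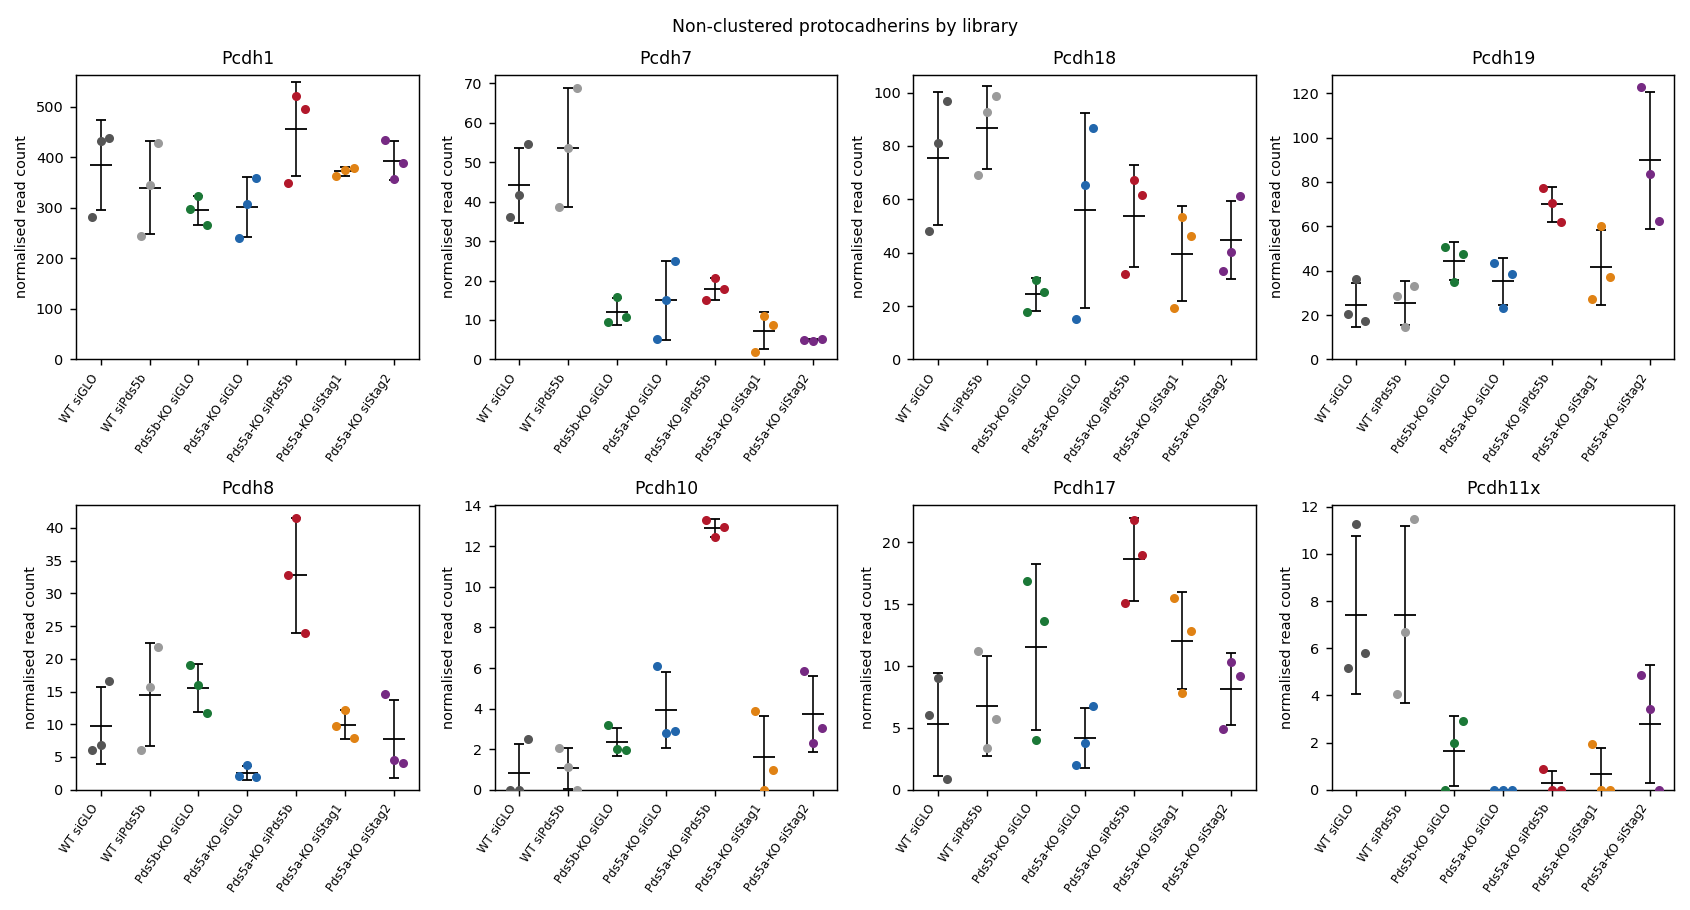
Normalised read counts (y axes, linear, from 0) of 8 non-clustered protocadherins in the 21 libraries, by group (x axes); points are libraries and bars the mean ± SD of 3. Pcdh8 and Pcdh10 were highest in the 3 Pds5a-KO siPds5b libraries, Pcdh7 was high only in the 6 wild-type libraries, and Pcdh11x had no reads in Pds5a-KO siGLO.

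Among the delta-1 genes, which bind protein phosphatase 1 through a conserved tail motif, Pcdh7 was lower in each knockout line. Normalised counts were 36.1, 41.7 and 54.6 in WT siGLO and 38.7, 53.6 and 68.9 in WT siPds5b. They were 5.08, 14.96 and 25.1 in Pds5a-KO siGLO, 9.5, 15.95 and 10.7 in Pds5b-KO siGLO, and 15.1, 20.7 and 17.9 in dual depletion. Every knockout library was below every wild-type library. Pcdh7 fell by 1.54 on the log2 scale (SE 0.40, adjusted p = 0.00491) in Pds5a-KO siGLO, by 1.86 (SE 0.41, adjusted p = 0.00144) in Pds5b-KO siGLO and by 1.30 (SE 0.39, adjusted p = 0.00857) in dual depletion. The Pds5a-KO siGLO call was lost without WT siGLO replicate 2 or 3 or Pds5a-KO siGLO replicate 1 or 2 (highest adjusted p 0.0311). It was also lost with all libraries of the 2 groups kept and only those groups in the model. The Pds5b-KO siGLO call was lost without WT siGLO replicate 3 or Pds5b-KO siGLO replicate 1 (highest 0.0112). The dual depletion call was lost without WT siGLO replicate 2 or 3 or any Pds5a-KO siPds5b library, and when libraries were scaled by total count alone (highest 0.0464). After siStag2 the libraries stood at 4.88, 4.59 and 5.11, and the difference from dual depletion, 1.85 ± 0.53, was called with the replicate block (adjusted p = 0.00768) and not without it (0.0279). Of the 6 fibroblast markers, 0 were called in Pds5a-KO siGLO, 2 lower in Pds5b-KO siGLO and 1 lower in dual depletion. The shares of all genes called lower were 8.12%, 8.57% and 14.6%. The part of these markers in the Pcdh7 difference was not tested.

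Pcdh1, the delta-1 gene with most reads, had 283 to 438 normalised counts in WT siGLO and 349 to 521 in dual depletion, which overlap. Its log2 difference of 0.59 ± 0.19 after siPds5b in Pds5a-KO cells was not called (adjusted p = 0.0422) unless the replicate number was a block (adjusted p = 0.00946). Pcdh11x, singled out after its values were seen, did not pass the filter. It had 6, 10 and 7 reads in WT siGLO, 4, 6 and 10 in WT siPds5b, and none in the 3 Pds5a-KO siGLO libraries. Against a floor of 3 reads over the group it was at least 7.27-fold lower in Pds5a-KO siGLO, and it was called when no filter was applied (adjusted p = 0.0043). Dual depletion had 1 read and Pds5b-KO siGLO 5. Pcdh9 had at most 4 reads in any library.

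The other non-clustered genes were rare. Pcdh12, an endothelial protocadherin, had 3, 0 and 1 reads in WT siGLO and 9, 10 and 10 in dual depletion, a ratio of 7.64 with an exact 95% interval of 2.68 to 29.9. Pcdh20 had no reads in WT siGLO and 7, 3 and 2 in dual depletion, at least 4.22-fold higher. Without the filter their adjusted p was 0.0188 and 0.0127, which did not pass the threshold. Pcdh15, a hair-cell tip-link protein, had at most 5 reads in a library.

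The summed gamma level lay between 39.2 and 49.9 CPM in every group, while single genes differed. The Pcdhga genes summed to 20.01 ± 0.38 CPM in WT siGLO and to 25.1 ± 1.1 in Pds5b-KO siGLO, and the Pcdhgb genes to 11.2 ± 1.3 CPM in WT siGLO, 6.84 ± 0.95 in Pds5a-KO siGLO, 10.3 ± 0.9 in Pds5b-KO siGLO and 5.56 ± 1.54 in dual depletion. The Pcdhgb libraries of dual depletion, at 4.09 to 7.16 CPM, lay below those of WT siGLO, at 9.98 to 12.6. They overlapped those of WT siPds5b, at 6.725, 10.15 and 12.05. These sums are descriptions with no test.

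Pcdhgb8 was the gamma gene with the smallest adjusted p in dual depletion. Its normalised counts were 51.6, 42.8 and 54.6 in WT siGLO, 15.2, 16.8 and 25.1 in Pds5a-KO siGLO, 52.8, 45.9 and 48.5 in Pds5b-KO siGLO and 8.88, 5.18 and 16.9 in dual depletion. The Pds5b-KO siGLO libraries lay within the range of WT siGLO, while all libraries of the 4 Pds5a-KO groups were below both. WT siPds5b had 24, 43 and 26 reads, against 15, 18 and 26 in Pds5a-KO siGLO, so a wild-type library also lay in the Pds5a-KO range. Pcdhgb8 fell by 2.26 on the log2 scale (SE 0.34, adjusted p = 1.02e-05) in dual depletion, in all 15 alternatives, and by 1.38 (SE 0.31, adjusted p = 0.00171) in Pds5a-KO siGLO, a call lost without Pds5a-KO siGLO replicate 2 (highest adjusted p over all alternatives 0.0186). The knockouts differed from each other by -1.36 ± 0.31 (adjusted p = 0.00206), a call lost without Pds5a-KO siGLO replicate 1 or 2 (highest 0.026). This call and the Pds5a-KO siGLO call were also lost without replicate 1 of every group.

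Pcdhga1, the first gamma gene of the cluster, differed between the knockouts in every refit. Its normalised counts were 73.0, 55.2 and 71.1 in WT siGLO, 36.6, 29.0 and 41.5 in Pds5a-KO siGLO and 90.8, 103 and 109.7 in Pds5b-KO siGLO. The 3 groups did not overlap. Pcdhga1 was lower in Pds5a-KO siGLO than in Pds5b-KO siGLO by a log2 difference of -1.50 ± 0.24 (adjusted p = 3.83e-05), called in all 16 alternatives. Against WT siGLO it fell by 0.90 in Pds5a-KO siGLO (SE 0.24, adjusted p = 0.00614). That call was lost without WT siGLO replicate 1 or 3 or Pds5a-KO siGLO replicate 1 or 2 (highest 0.0437). It was also lost with only the groups compared in the model and without replicate 1 of every group. The value of Pcdhga1 of 0.60 ± 0.22 in Pds5b-KO siGLO did not pass the threshold (adjusted p = 0.0415).

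Pcdhga3 rose in Pds5b-KO siGLO. Its normalised counts were 23.2, 10.1 and 13.2 in WT siGLO and 46.5, 33.9 and 47.6 in Pds5b-KO siGLO, with no overlap. The log2 fold change was 1.43 ± 0.37 (adjusted p = 0.00494), and the call was lost without WT siGLO replicate 2 or 3 or Pds5b-KO siGLO replicate 1 or 3 (highest 0.0292).

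In dual depletion Pcdhgb5 and Pcdhgb7 were called beside Pcdhgb8. Mean normalised counts of Pcdhgb5 were 38.6 in WT siGLO, 18.6, 14.6 and 16.7 in Pds5a-KO siGLO, siStag1 and siStag2, and 13.1 in dual depletion. Those of Pcdhgb7 were 62.9 in WT siGLO, 40.2, 34.8 and 38.2 in the same 3 groups, and 25.8 in dual depletion. Pds5b-KO siGLO had 30.7 and 37.65, and WT siPds5b 36.8 ± 12.1 and 45.5 ± 28.7 (SD). Pcdhgb7 had 17, 40 and 65 reads in WT siPds5b and 22, 29 and 28 in dual depletion, so these groups overlapped. No gamma gene was called after siPds5b in Pds5a-KO cells. Pcdhgb5 had normalised counts of 39.5, 34.9 and 41.4 in WT siGLO and 9.77, 17.6 and 11.96 in dual depletion, a fall by 1.57 on the log2 scale (SE 0.34, adjusted p = 0.000572) that was called in all 15 alternatives. Pcdhgb7 had 56.7, 55.2 and 76.9 in WT siGLO and 19.5, 30.1 and 27.9 in dual depletion, and fell by 1.29 (SE 0.38, adjusted p = 0.00865). The Pcdhgb7 call was lost without any 1 of the 6 libraries compared and when libraries were scaled by total count alone, with adjusted p up to 0.0417. Pcdhgb2, which is also among the gb genes with most reads, had a log2 difference of -0.04 ± 0.29 in dual depletion (adjusted p = 0.926).

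The C-type gamma genes did not move together. Pcdhgc3, a C-type gene expressed widely outside the nervous system, had 207, 340.2 and 331 normalised counts in WT siGLO and 246, 307 and 334 in dual depletion, and its groups overlapped. Pcdhgc5 rose by 1.4 ± 0.39 in dual depletion (adjusted p = 0.00572), from 14.6, 27.0 and 18.2 to 26.6, 61.2 and 68.8. Its mean was as high after siStag2 (52.6 ± 24.5, SD) as in dual depletion (52.2 ± 22.45), and was 30.3 ± 6.0 in Pds5a-KO siGLO. The lowest dual depletion library lay below the highest WT siGLO library. The call was lost without WT siGLO replicate 1 or 3 or Pds5a-KO siPds5b replicate 2 or 3 (highest 0.0391), and with only the groups compared in the model. Pcdhgc4 was at 9.45, 22.5 and 19.02 in WT siGLO and 6.33, 2.99 and 4.85 in Pds5b-KO siGLO, with an adjusted p of 0.0187.

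**Figure D3:**
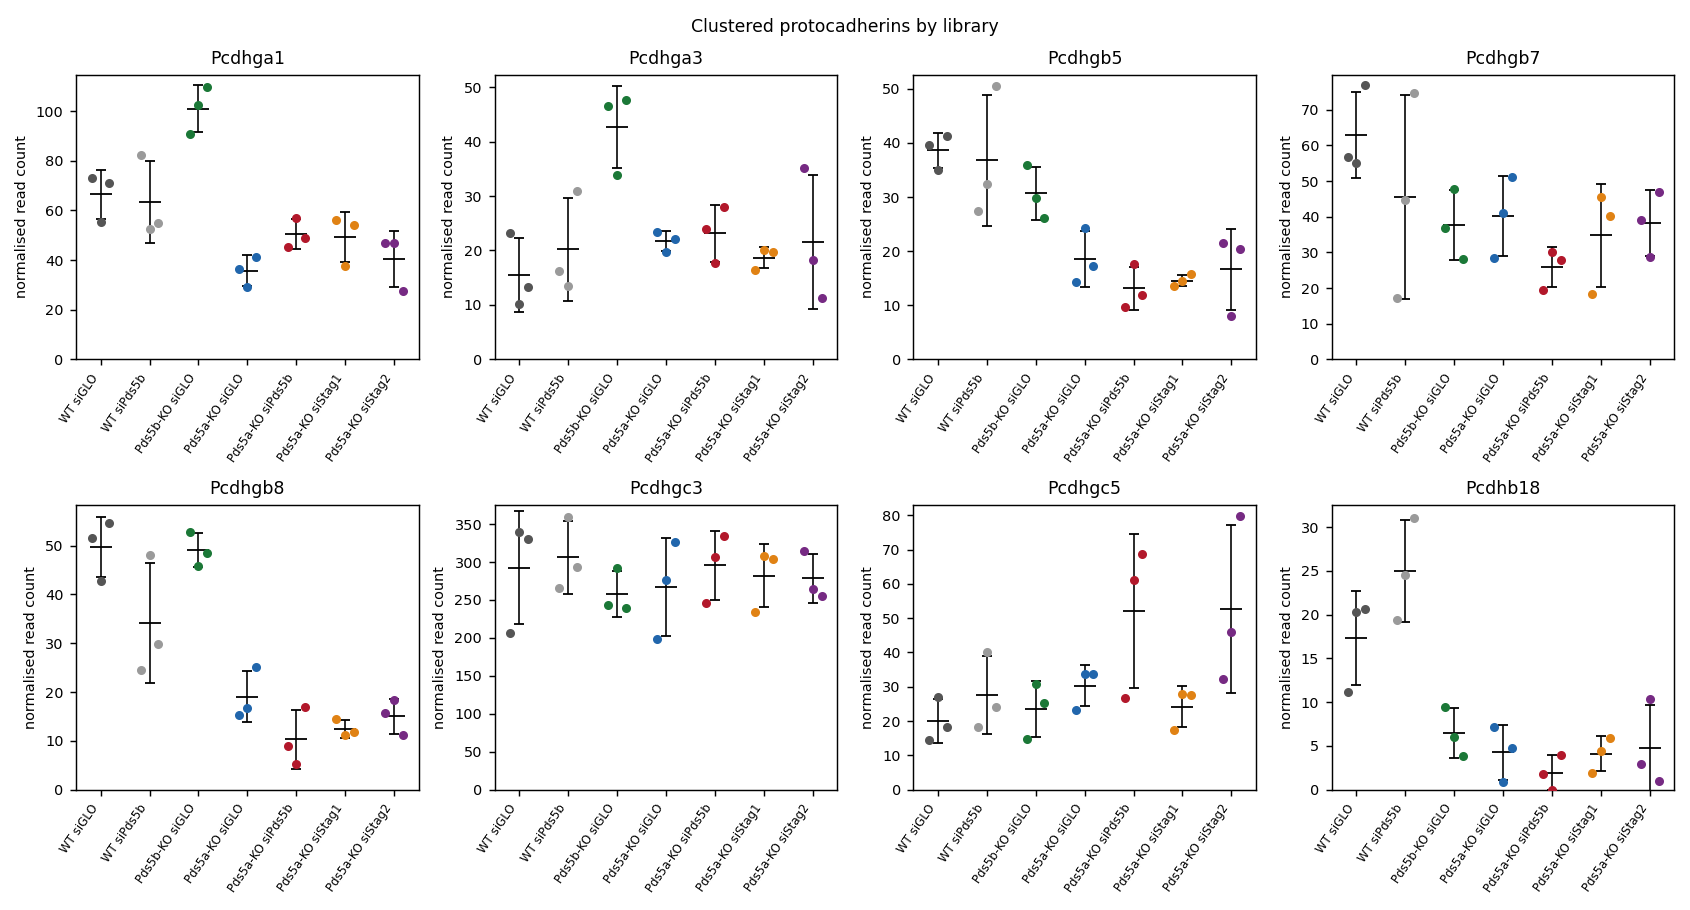
Normalised read counts (y axes, linear, from 0) of 8 clustered protocadherins in the 21 libraries, by group (x axes); points are libraries and bars the mean ± SD of 3. In the 12 libraries of the Pds5a-KO groups Pcdhgb8 was at most 25.1 and Pcdhb18 at most 10.3, while Pcdhga1 was highest in the 3 Pds5b-KO siGLO libraries, at 90.8 to 109.7. WT siPds5b had 24, 43 and 26 reads of Pcdhgb8, and its lowest library also lay in the Pds5a-KO range.

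Order along the cluster gave a further description. Distances are from the start of Pcdhga1, and the stretches named here were chosen after the values were seen. In Pds5b-KO siGLO, the 10 tested genes from Pcdhga1 at 0 kb to Pcdhga8 at 63.9 kb all had fitted log2 differences above 0, from 0.26 (Pcdhga2) to 1.43 (Pcdhga3), of which only Pcdhga3 was called. Of the next genes, Pcdhgb5 at 69.2 kb had -0.34, Pcdhga9 at 75.2 kb had 1.13 and Pcdhgb7 at 89.8 kb had -0.75. In dual depletion the 3 called Pcdhgb genes lay between 69.2 and 100 kb, and the Pcdhga genes among them, Pcdhga9, Pcdhga10 and Pcdhga11, had 0.84, -0.48 and -0.05 and were not called. Over the 30 other tested genes in the stretch of chromosome 18 that holds and flanks the clusters, the median log2 fold change was -0.01, -0.06 and 0.02 in Pds5a-KO siGLO, Pds5b-KO siGLO and dual depletion. Of these 30, 3, 3 and 4 were called, beside 17.8%, 18.2% and 32.0% of all genes.

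**Figure D4:**
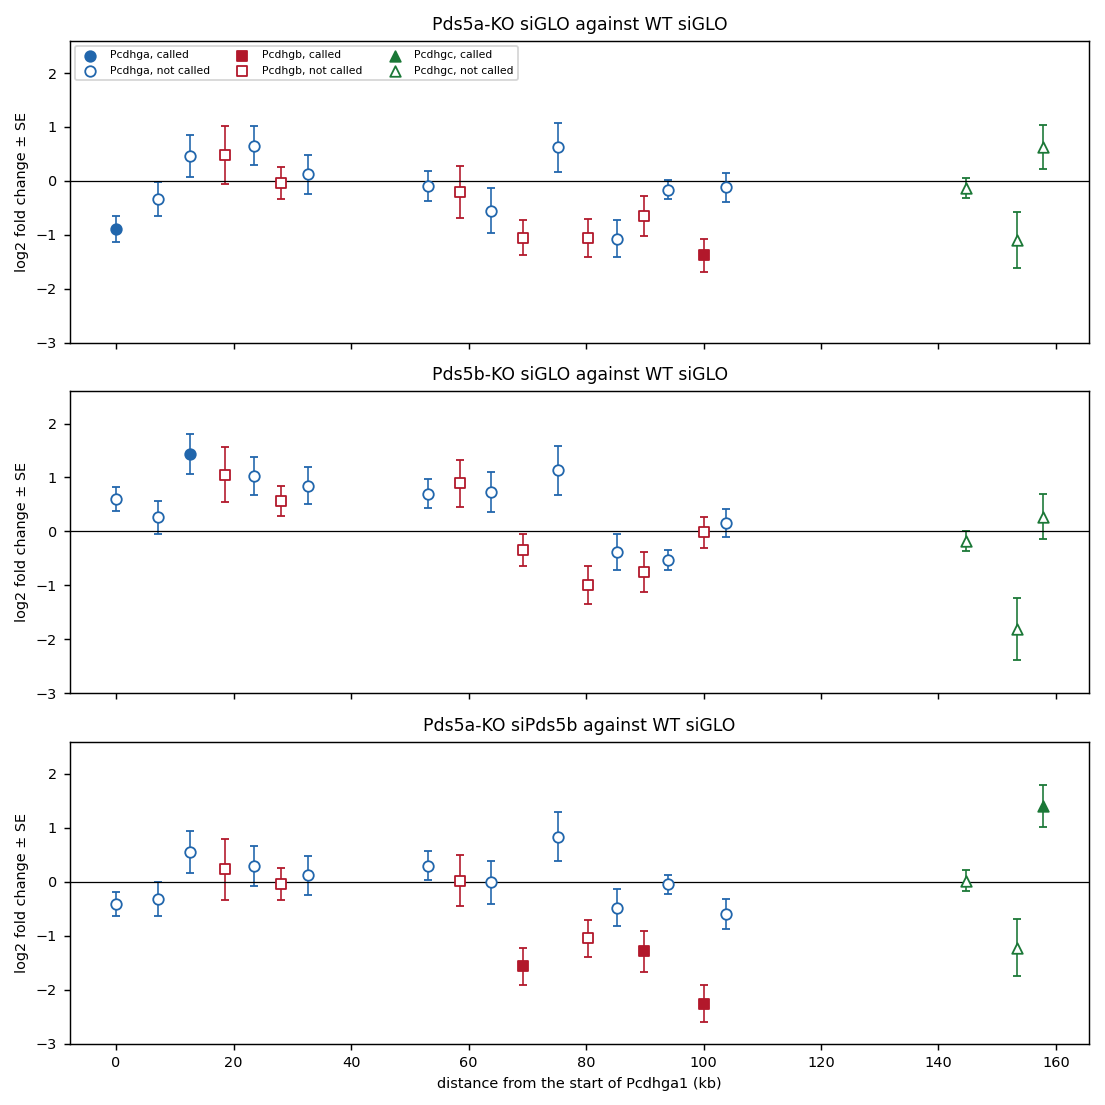
Log2 fold change ± SE (y axes) of the 21 tested gamma genes against the distance of their start from that of Pcdhga1 in kb (x axis), for Pds5a-KO siGLO, Pds5b-KO siGLO and Pds5a-KO siPds5b, each against WT siGLO; filled symbols passed adjusted p under 0.01. In dual depletion the filled squares are Pcdhgb5 at 69.2 kb, Pcdhgb7 at 89.8 kb and Pcdhgb8 at 100 kb.

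The beta genes, which lack constant exons, were each read from few counts, and 3 were tested. Pcdhb18 had 13, 18 and 25 reads in WT siGLO, 19, 22 and 27 in WT siPds5b, 7, 1 and 5 in Pds5a-KO siGLO, 9, 6 and 4 in Pds5b-KO siGLO and 2, 0 and 4 in dual depletion. All 15 libraries of the knockout groups were below all 6 wild-type libraries once scaled. The gene passed the filter mostly through the wild-type libraries, so that it was bound to be lower in the other groups. Its fitted values, their p and the alternatives are no independent support. The fall by 3.08 on the log2 scale in dual depletion (SE 0.70, adjusted p = 0.000951) was called in all 15 alternatives, and the values in Pds5a-KO siGLO (-2.0 ± 0.61, adjusted p = 0.0154) and Pds5b-KO siGLO (-1.42 ± 0.57, adjusted p = 0.0607) were not called. Pcdhb22 and Pcdhb17, the beta genes with the most reads, had 24, 19 and 26 and 10, 17 and 14 reads in WT siPds5b against 4, 12 and 12 and 5, 2 and 15 in WT siGLO. These were the 2 members at unadjusted p under 0.05 in that comparison, and their adjusted p was 1. The summed beta level was 5.77 ± 1.25 CPM in WT siPds5b and 2.88 ± 0.93 in WT siGLO, and 4.331 to 6.504 against 1.933 to 3.793 by library, with no test.

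The alpha genes were the rarest in WT siGLO and had their highest sum in dual depletion. The 15 genes together had 4 to 9 reads per library in WT siGLO, 11 to 18 in Pds5a-KO siGLO, 7 to 26 in Pds5b-KO siGLO, 39 to 55 in dual depletion, 12 to 29 after siStag1 and 22 to 39 after siStag2. As CPM the sums were 0.260 ± 0.113 in WT siGLO, 0.767 ± 0.218 in Pds5a-KO siGLO and 2.30 ± 0.26 in dual depletion. The dual depletion libraries, at 2.01 to 2.50 CPM, did not overlap any other group. Reads came from 2 to 5 of the 15 genes in a WT siGLO library and from 10 to 12 in a dual depletion library. A library with more alpha reads shows more of the genes at 1 read or above, so that the number of genes is not independent of the sum.

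Single alpha genes were described from reads and not tested in the fit of filtered genes. Pcdha7, with 2 reads in the 3 WT siGLO libraries together and 7, 9 and 11 in dual depletion, had a ratio of 14.2 (exact 95% interval 3.57 to 123). Pcdha12 had 3, 1 and 2 reads in WT siGLO and 5, 5 and 1 in dual depletion, a ratio of 1.93 (0.655 to 6.36). Pcdha10, singled out after its values were seen, had no reads in WT siGLO and 9, 11 and 4 in dual depletion, at least 8.43-fold higher. It was called by DESeq2 (adjusted p = 0.00149) and by edgeR's quasi-likelihood test without the filter (adjusted p = 0.00124). Pcdhac2, a C-type alpha gene, had 2, 1 and 2 reads in WT siGLO, 8, 0 and 8 in dual depletion and 21, 6 and 7 after siStag2, and Pcdhac1 had at most 3 in any library. Pcdha4 and Pcdha4-g had no reads in any library.

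**Figure D5:**
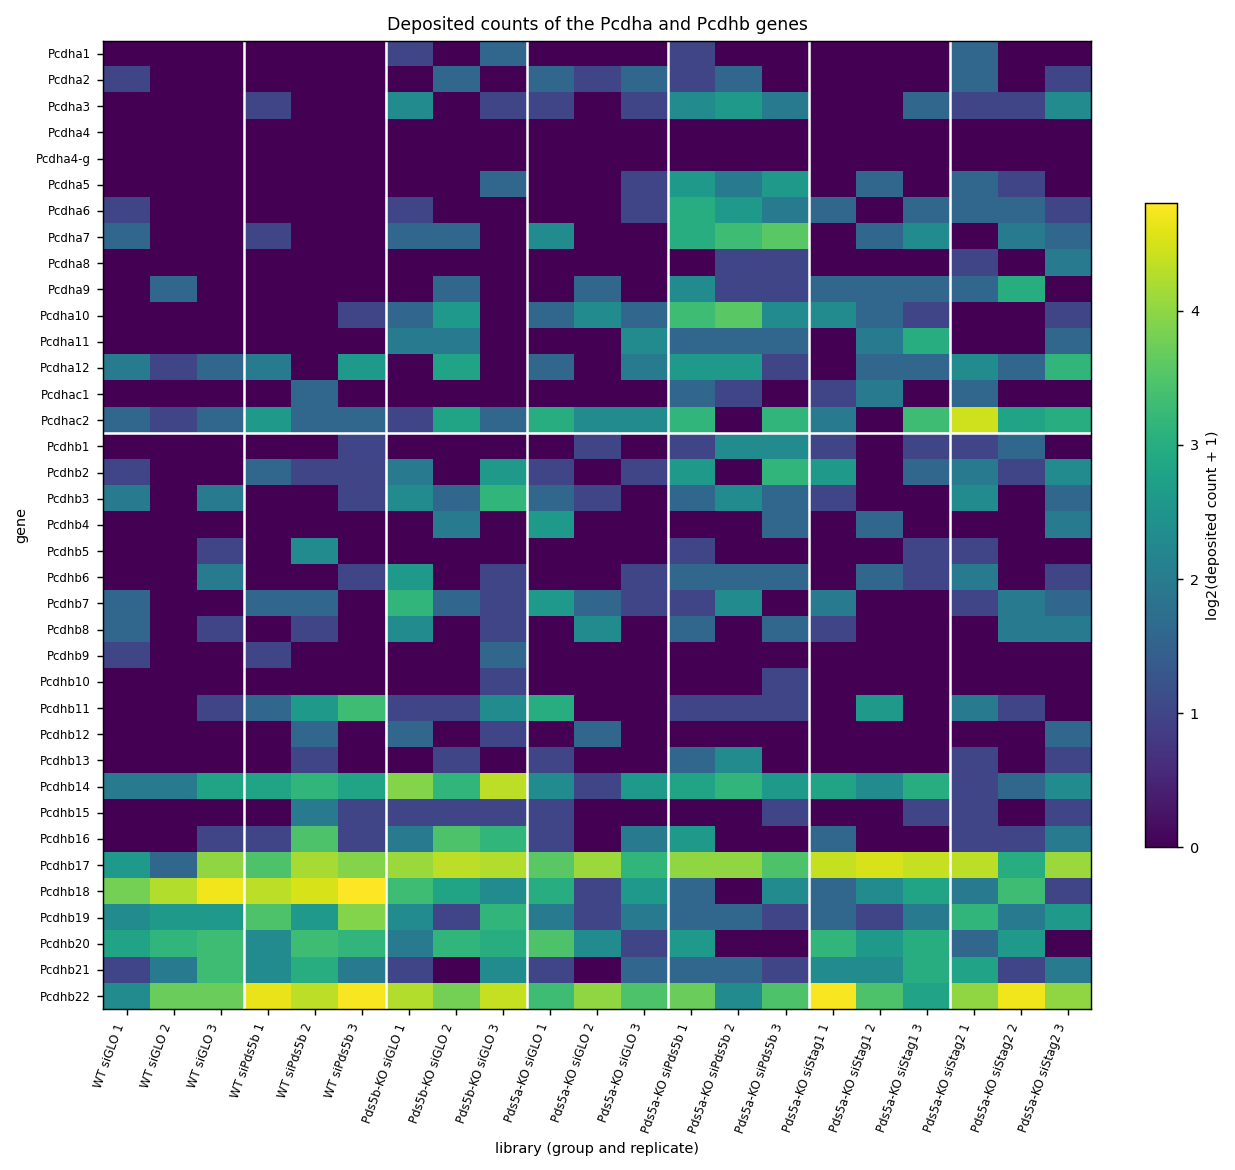
Deposited counts of the 15 Pcdha and 22 Pcdhb genes (rows, with a line between the clusters) in the 21 libraries (columns, grouped by condition), coloured by log2(count + 1). Alpha genes had 4 to 9 reads in all in a WT siGLO library and 39 to 55 in a Pds5a-KO siPds5b library, and Pcdhb18 was brighter in the 6 wild-type libraries than in the others.

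Genes known to regulate the clustered loci were counted beside the members. Of 19 tested regulators, 3 were higher and 1 lower in Pds5a-KO siGLO, 9 higher and 1 lower in Pds5b-KO siGLO, and 5 higher and 3 lower in dual depletion, with 17.8%, 18.2% and 32.0% of all genes called. The largest changes in dual depletion were in the de novo DNA methylation genes Dnmt3l (1.81 ± 0.24), Dnmt3a (1.68 ± 0.25) and Dnmt3b (1.08 ± 0.15), all called. Dnmt3a and Dnmt3b were also higher in each knockout with siGLO. Ctcf, which binds the alternate promoters and their enhancers, differed between Pds5a-KO siGLO and Pds5b-KO siGLO by -0.52 ± 0.07 (adjusted p = 4.25e-06).

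Of 18 genes whose products act with protocadherin proteins, 4 were higher and 1 lower in dual depletion, 27.8% against 32.0% of all genes. The receptor kinase gene Ret rose by 2.12 ± 0.22 and the focal adhesion kinase relative Ptk2b by 1.05 ± 0.13. Wasf1, which encodes a WAVE protein, fell by 0.33 (SE 0.09). In the other cadherin superfamily genes, 10 of 27 tested were higher and 5 lower in dual depletion, 55.6% against 32.0% of all genes (17.4% higher and 14.6% lower). The largest were the desmocollin gene Dsc3 (4.72 ± 0.67), the giant cadherin Fat4 (3.68 ± 0.62) and Dsc2 (2.59 ± 0.30). Fat4 averaged 28.9 normalised counts in dual depletion and at most 7.45 in any other group. Clstn2 averaged 22.4 in dual depletion and at most 6.83 in any other group. Both passed the filter on low counts mostly through dual depletion. Dsc3 averaged 0.859 in WT siGLO, 27.1 in dual depletion and 12.2 after siStag2, and passed mostly through the last 2 groups. The values of these genes are no independent support. The count of higher genes includes Fat4 and Dsc3, so the 55.6% is in part bound by the filter. After siStag1 no gene of the 3 lists was called, and after siStag2 Smchd1, Cyfip2 and Cdh1 were, by 0.34, 0.48 and 0.36.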

How the data were processed

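PolyA RNA-seq reads were aligned by the authors with STAR to mm10, and the deposited files hold raw read counts per gene symbol for 1 library each. The counting tool, its annotation and its use of strand are not given in the sources used here, so that antisense or overlapping reads cannot be told apart. Members and gene lists were chosen with earlier results of these data known. The counts were analysed with edgeR 4.0.16 in R 4.3.3: filterByExpr, TMM scaling, and a robust quasi-likelihood F test on 14963 genes, with 1 mean for each of the 7 groups, 11 contrasts and Benjamini-Hochberg adjustment over all genes. A gene was called at adjusted p under 0.01. The fit was tested on simulated data. Named were all called members, the 2 members with most reads in each class, the targeted genes and at most 3 genes per list. Other members were named after their values were seen. Alternatives were DESeq2 1.42.0, other scalings, filters and thresholds, a replicate block and leaving out libraries. Deviations of libraries with the same replicate number correlated by 0.113 (median of 63 pairs) against -0.0592 for other pairs, and all 3 pairs were above 0.1 in 4 of 10 comparisons: WT siPds5b against WT siGLO, and siPds5b and siStag2 in Pds5a-KO cells against siGLO and against each other. Exact intervals and floors cover counting error only. No replicate libraries were identical. Gene positions and promoters came from RefSeq (GRCm38.p6) and exon lengths from GENCODE (GRCm38), which held 70 of the 71 members.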

Additional observations from a re-analysis of the deposited data

Results flagged for a closer look

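Members that differed between groups in a direct test were looked at again. Between the knockout lines, Pds5a-KO siGLO was lower than Pds5b-KO siGLO for Pcdh8 (log2 difference -2.53), Pcdhga1 (-1.50) and Pcdhgb8 (-1.36). Each line is 1 clone, so that the gene removed and the clone cannot be told apart. Between siPds5b and siStag2 in Pds5a-KO cells, Pcdh8 differed by 2.03. Its interaction with genotype, 3.08, had an adjusted p of 0.0248 by edgeR's quasi-likelihood test.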

How the results depend on the processing

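Over 305 alternatives for the 20 called pairs of gene and comparison, 241 kept the call, 64 lost it and 0 changed sign. These include other thresholds on the main fit, which are not refits. The threshold of 0.05 keeps every call by construction. A gene that failed a stricter filter was left out of that alternative and not counted as lost. Counts of called members below are for Pds5a-KO siGLO and Pds5b-KO siGLO against WT siGLO, then Pds5a-KO siGLO against Pds5b-KO siGLO, dual depletion against WT siGLO, dual depletion against Pds5a-KO siGLO, and siPds5b against siStag2. With at least 10 counts in every library, which leaves fewer genes, they were 1, 0, 1, 3, 0 and 0, and at adjusted p under 0.05 they were 8, 10, 6, 11, 4 and 2, with 1 in siStag2 against siGLO and 1 in the interaction. With only the groups compared in the model they were 1 in Pds5a-KO siGLO and 0 in siPds5b against siStag2. The replicate block gave 5 between the knockouts (adding Pcdhga8 and Pcdh18, adjusted p = 0.00409) and called Pcdh18 in Pds5b-KO siGLO against WT siGLO (adjusted p = 8.79e-05), comparisons whose numbers were not found to pair the samples. It gave 2 in each siPds5b comparison within Pds5a-KO cells and 1 after siStag2, where DESeq2 and no filter also gave 1. It changed no other count by over 1.5 times, and the replicate numbers pair the samples in 4 comparisons only. Without replicate 1 of every group, an alternative chosen after seeing the data, the counts were 5 in Pds5b-KO siGLO and 2 for siPds5b in Pds5a-KO cells. Leaving out 1 library gave 0 to 4 in Pds5a-KO siGLO, 0 to 3 in Pds5b-KO siGLO, 2 to 4 between the knockouts, 5 to 7 in dual depletion, 0 to 1 for siStag2, 0 to 1 for siPds5b against siStag2 and 1 for siPds5b in Pds5a-KO cells. A lost call then comes with fewer samples. Beyond the construction named, the cause was not tested. Depth limits most alpha and beta genes, which had under 10 reads per library.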
